A study of Homo sapiens with 12 samples.

Results

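The carbonic anhydrase genes CA2, CA9, CA11, CA12 and CA13 were followed through RNA sequencing of 786-O cells. They were taken by gene symbol from the deposited tables, with their levels in these libraries already known, and made up 5 of the 11 carbonic anhydrase genes among 17085 genes. 786-O is an established human renal carcinoma line, labelled wild type, and every library came from this 1 line. The cells received for 24 h either dimethylsulfoxide (DMSO) as vehicle, everolimus, which inhibits mTOR, 1.5 µM SGI-1027, which inhibits DNA methyltransferases, or everolimus at 5 µM together with 1.5 µM SGI-1027 (the combination), with 3 libraries in each of the 4 groups. For everolimus alone the sample annotations gave 5 µM in the sample characteristics and 10 µM in the treatment protocol, and the study's methods gave 5 µM. Comparisons of the combination with everolimus alone, or with the sum of both single drugs, therefore assume equal everolimus doses, which were not settled. Whether the 3 libraries of a group were separate cultures was not stated, so errors measure the spread between libraries, which may be technical.

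Carbonic anhydrases convert CO2 and water to bicarbonate and a proton, and so couple metabolism to the pH inside and outside the cell. CA2 and CA13 are cytosolic enzymes, CA9 and CA12 are membrane enzymes whose catalytic domain faces the outside of the cell, and CA11 is a secreted relative that lacks catalytic activity. In clear cell renal carcinoma, loss of VHL stabilizes hypoxia-inducible factor (HIF). CA9 is a known target of HIF1α, a subunit that 786-O cells are known to lack in functional form while they express HIF2α, which the gene EPAS1 encodes.

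Since SGI-1027 is directed at DNA methylation and CA9 and CA12 are genes of the hypoxia response, the 250 bases before their RefSeq start sites are shown on the strand of each gene. Capitals mark the match to a core letter string of the HIF binding element, ACGTG or GCGTG, searched on both strands. RefSeq entries were matched for 2 of the 5 genes (build GRCh38.p14, chr9:35673678-35673927 on the plus strand for CA9 and chr15:63381847-63382096 on the minus strand for CA12).
CA9: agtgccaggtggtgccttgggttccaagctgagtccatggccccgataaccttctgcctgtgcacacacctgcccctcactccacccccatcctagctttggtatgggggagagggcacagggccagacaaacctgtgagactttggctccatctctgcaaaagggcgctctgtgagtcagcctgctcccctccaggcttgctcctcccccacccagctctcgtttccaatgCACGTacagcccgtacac
CA12: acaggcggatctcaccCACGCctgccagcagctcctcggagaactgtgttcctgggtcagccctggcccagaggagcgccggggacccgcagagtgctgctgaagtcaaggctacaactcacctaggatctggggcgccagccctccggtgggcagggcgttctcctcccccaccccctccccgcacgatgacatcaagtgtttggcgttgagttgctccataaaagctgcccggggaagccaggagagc

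The CA9 window held ACGTG on the opposite strand, 18 bases before the start, and 5 CpG dinucleotides, more than 34.3% of all promoter windows. The CA12 window held GCGTG on the opposite strand, 234 bases before the start, and 13 CpG dinucleotides, more than 53.4% of all windows, whose median was 11. Among 35114 RefSeq promoter windows of this length, ACGTG occurred in 18.5%, GCGTG in 32.2% and at least 1 of them in 43.2%. The longer string CACGTG, which contains ACGTG, occurred in 6.35% of the windows and in neither of these. These letter matches describe the windows only, and neither binding nor methylation was measured.

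Libraries held 37046231 to 41516976 counts, and scaling factors by the trimmed mean of M values (TMM) lay between 0.99 and 1.01. Of all genes, 12841 had enough counts to be tested with edgeR, among them the 5 described. CA2 and CA12 rested on at least 900 counts per library, CA13 on 136 to 260 per library, and CA9 and CA11 on 2 to 39. CA11 reached 10 counts in no DMSO library and in every SGI-1027 and combination library, so it was kept for testing through the groups in which it was high. CA9 reached 10 counts in no combination library, and was kept through libraries of the groups in which it was higher. All 6 renal epithelial markers (PAX8, PAX2, KRT8, KRT18, VIM and EPAS1) were expressed, with at least 584 counts of PAX2 in each library. Of 5 markers of other cells, 4 were in the tables (PTPRC, PECAM1, VWF and ALB), and the highest value was 12 counts for PECAM1.

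Levels were compared between genes as FPKM, fragments corrected for the length of a gene and the size of a library. In the DMSO group CA2 stood at 58.6 ± 3.40 FPKM (SD, n = 3), CA12 at 18.7 ± 0.844, CA13 at 1.56 ± 0.0451, CA9 at 0.280 ± 0.230 and CA11 at 0.0947 ± 0.0578. Thus a cytosolic and a membrane enzyme made up nearly all of the measured carbonic anhydrase message. CA2 was above 93.7% of all genes in the tables by mean FPKM in DMSO, CA12 above 82%, CA13 above 44.2%, CA9 above 33% and CA11 above 28.2%. Neighbouring levels in this order did not overlap between libraries, except those of CA9 and CA11. CA2, CA12 and CA13 kept this order in each treated group, and the mean of CA11 lay above that of CA9 there, with overlapping libraries under everolimus and without overlap under SGI-1027 and the combination.

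CA2, the abundant cytosolic enzyme, was lower in every treated library than in every DMSO library, and lowest with both drugs. It measured 54.7, 59.7 and 61.3 FPKM in the DMSO libraries, 27.6, 25.8 and 26.2 with everolimus, 25.8, 27.3 and 25.3 with SGI-1027, and 18.1, 17.3 and 15.3 with the combination. The single-drug groups overlapped each other, and all 3 combination libraries lay below both. On the scale of counts scaled to library size (CPM), everolimus left 45.2% of the DMSO mean, SGI-1027 44.6% and the combination 28.4%. In bulk RNA, fewer cells that express a gene and less RNA per cell cannot be told apart. The log2 fold changes against DMSO were -1.15 (SE 0.062) with everolimus, -1.16 (SE 0.062) with SGI-1027 and -1.81 (SE 0.065) with the combination. Against the single drugs, the combination differed by -0.67 (SE 0.066) from everolimus and by -0.65 (SE 0.066) from SGI-1027.

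CA12, the membrane enzyme, was also lower in every treated library, but no lower with both drugs than with either. Its values were 19.7, 18.4 and 18.1 FPKM with DMSO, 10.97, 10.2 and 10.7 with everolimus, 9.02, 9.14 and 10.1 with SGI-1027, and 11.2, 11.7 and 11.1 with the combination. Every combination library lay above every SGI-1027 library. The log2 fold changes against DMSO were -0.82 (SE 0.052), -0.99 (SE 0.052) and -0.74 (SE 0.051) for everolimus, SGI-1027 and the combination. The combination stood 0.24 (SE 0.052) higher than SGI-1027 on the log2 scale and 0.08 (SE 0.052) higher than everolimus, where CPM values overlapped although FPKM values did not.

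CA13, the second cytosolic enzyme, was lower by a smaller amount. It measured 1.53, 1.61 and 1.54 FPKM with DMSO, 1.003, 1.04 and 1.01 with everolimus, 1.09, 1.25 and 1.08 with SGI-1027, and 1.24, 1.20 and 0.928 with the combination. Every treated library lay below every DMSO library, and the combination libraries overlapped both single-drug groups. The log2 fold changes against DMSO were -0.62 (SE 0.124), -0.46 (SE 0.123) and -0.50 (SE 0.123) in the same order of groups.

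**Figure D1:**
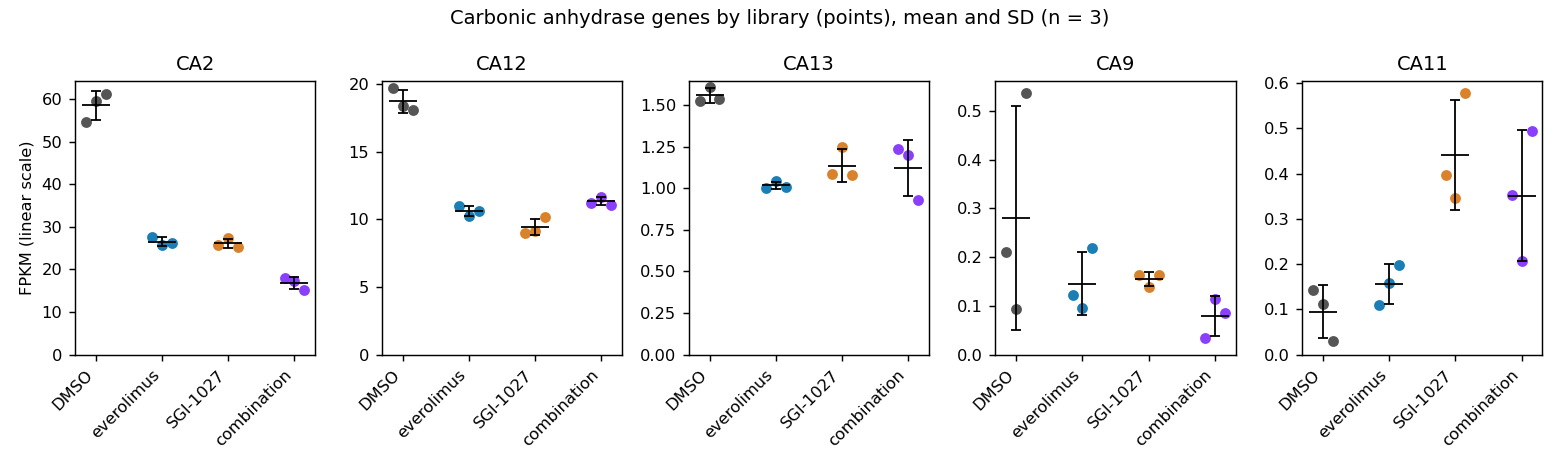
FPKM of the 5 carbonic anhydrase genes in each library (points, coloured by group), with the mean and SD of 3 libraries, each panel on its own linear axis from 0. CA2, CA12 and CA13 libraries of every treated group lie below the DMSO libraries, CA9 groups overlap DMSO, and CA11 lies above DMSO with SGI-1027 and with the combination.

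CA9, the hypoxia-induced membrane enzyme, was barely detected, and its libraries overlapped DMSO in each treated group. The counts were 12, 6 and 32 in the DMSO libraries, 7, 6 and 13 with everolimus, 10, 8 and 10 with SGI-1027, and 2, 7 and 5 with the combination. A single DMSO library thus held most of the 50 DMSO counts. That library, DMSO replicate 3, gave 0.829 CPM before TMM scaling (95% exact binomial interval 0.567 to 1.17, for counting error only), above the interval of DMSO replicate 2 (0.053 to 0.315). The log2 fold change with the combination was -1.81 (SE 0.611), but -0.91 without DMSO replicate 3 and -2.24 without DMSO replicate 2. Without DMSO replicate 3, the everolimus and SGI-1027 values moved from -0.93 (SE 0.543) and -0.82 (SE 0.536) to -0.04 and 0.07. The gene ARHGEF39 overlaps CA9 on the opposite strand in the GENCODE annotation and held 351 to 605 counts per library. It was lower by 0.68 (SE 0.080) on the log2 scale with the combination (edgeR adjusted p = 6.16e-07) and by 0.48 (SE 0.079) with SGI-1027 (edgeR adjusted p = 4.38e-05). The strand setting of the counting was not stated, so reads of CA9 and ARHGEF39 where they overlap cannot be told apart.

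CA11, the noncatalytic relative, was the 1 gene of the 5 with higher levels after treatment. It had 9, 8 and 2 counts in the DMSO libraries, 7, 11 and 13 with everolimus, 27, 22 and 39 with SGI-1027, and 23, 14 and 32 with the combination. All libraries that received SGI-1027 lay above all that did not, and everolimus alone overlapped DMSO. The log2 fold changes against DMSO were 0.70 (SE 0.539) with everolimus, 2.20 (SE 0.456) with SGI-1027 and 1.85 (SE 0.472) with the combination. Leaving out 1 library at a time moved the SGI-1027 value between 1.80 and 2.57 and the combination value between 1.45 and 2.22. The next gene downstream among those of the deposited tables, DBP on the same strand, had 0 to 5 counts in every group and was not tested. SEC1P overlaps CA11 on the opposite strand in the GENCODE annotation and is absent from the deposited tables. As for CA9, reads of CA11 and SEC1P where they overlap cannot be told apart, since the strand setting was not stated.

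**Figure D2:**
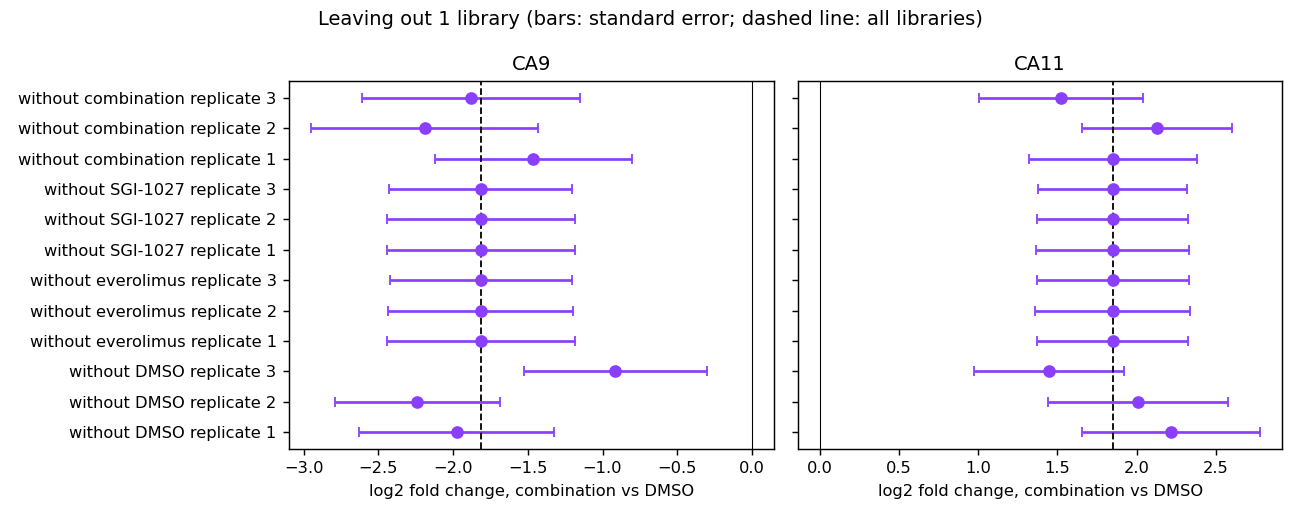
Log2 fold change of CA9 and CA11 in the combination against DMSO (x axis, 3 libraries per group) when each library in turn is left out (y axis), with standard errors and the value of all libraries as a dashed line. CA9 moves to -0.91 without DMSO replicate 3, while CA11 stays between 1.45 and 2.22.

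The differentially expressed gene (DEG) cut-off of the study, a log2 fold change of 1 or more in either direction with an unadjusted p under 0.05, was applied with edgeR as a description, since the genes had been chosen on these same contrasts. With everolimus, 1 of the 5 genes passed it (CA2), against 4.79% of all tested genes. With SGI-1027, 2 passed it (CA2 and CA11), against 7.33%, while CA12 lay just short of the fold limit at -0.99. CA12 passed it without SGI-1027 replicate 3 (-1.05), without DMSO replicate 3 (-1.00) and without the filter on low counts (-1.01). With the combination, 3 passed it (CA2, CA9 and CA11), against 9.96%, and CA9 no longer did without DMSO replicate 3. Conversely, CA9 also passed with either single drug once DMSO replicate 2 was left out. CA9 and CA11 were kept for testing through groups in which they were higher, so their calls in any comparison carry no weight as a test. Without the fold limit, an adjusted p under 0.05 was met by 3 of the 5 under everolimus, 4 under SGI-1027 and 5 under the combination, against 56.4%, 62.6% and 66.2% of all tested genes. In the combination against everolimus, against SGI-1027 and for the interaction of the drugs it was met by 2, 2 and 3, against 39.3%, 19.6% and 45.6%.

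Libraries did not overlap DMSO, and were lower, for CA2, CA12 and CA13 in each treated group. Across all tested genes, 32.3% were lower without overlap under everolimus, 30.7% under SGI-1027 and 34.7% under the combination. CA11 was higher without overlap with SGI-1027, as were 32.5% of all tested genes, and with the combination, as were 34.5%. The 3 comparisons share the DMSO libraries and are not independent of each other.

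**Figure D3:**
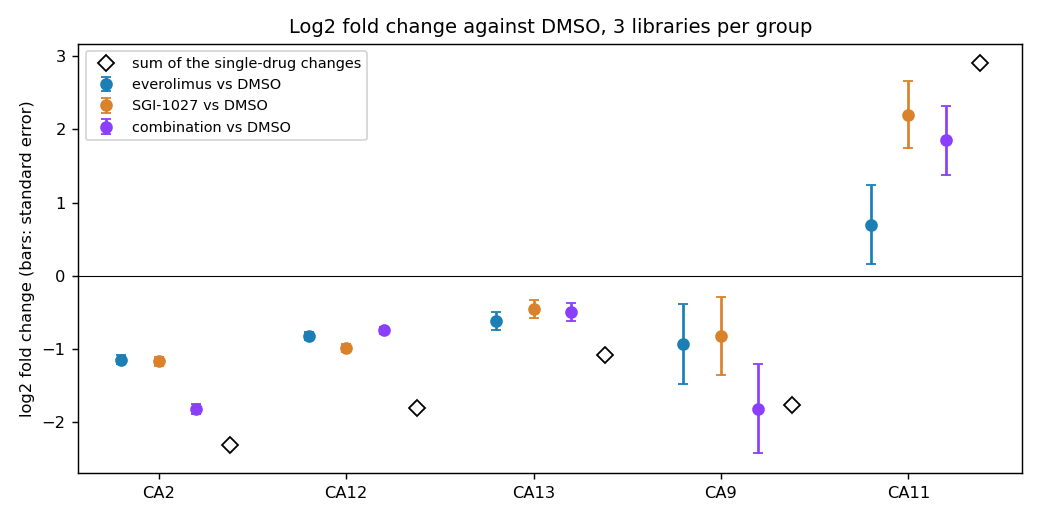
Log2 fold change against DMSO (y axis, points with standard errors, 3 libraries per group) for each gene and treatment, and the sum of both single-drug values (open diamonds). CA2 is lowest with the combination, CA12 with the combination lies far above its sum, and CA9 and CA11 carry the widest errors.

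Next, the combination was set against the single drugs, to describe what each drug changed in the presence of the other. Against everolimus this holds only if the everolimus dose was the same in both groups, which the annotations left unsettled. Against everolimus, 1 of the 5 genes passed the DEG cut-off (CA11, 1.15 with SE 0.431), beside 3.9% of all tested genes, and it no longer passed without everolimus replicate 1 or combination replicate 3. Against SGI-1027, 0 of 5 passed with edgeR or with DESeq2, beside 1.64% of all tested genes, and with edgeR 2 had an unadjusted p under 0.05 at any fold change (CA2 and CA12). CA2 was lower without overlap against both single drugs, as were 27.2% of all tested genes against everolimus and 17.5% against SGI-1027. CA11 was higher without overlap against everolimus, as were 27% of all tested genes, and CA12 against SGI-1027, as were 17.1%. For CA11 the closest libraries were combination replicate 2 with 14 counts and everolimus replicate 3 with 13. CA9 was lower without overlap against SGI-1027 by 0.99 (SE 0.675) on the log2 scale, on 14 against 28 summed counts. Its closest libraries were combination replicate 2 with 7 counts and SGI-1027 replicate 2 with 8. Both genes were kept for testing through groups in which they were higher, so neither separation, nor the CA11 call, carries weight as a test.

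If the effects of both drugs added up on the log2 scale, the combination would equal the sum of the single-drug values. For CA12 that sum was -1.81 and the combination -0.74, a difference of 1.07 (SE 0.073). For CA2 the sum was -2.31 and the difference 0.50 (SE 0.090), and for CA13 the sum was -1.08 and the difference 0.58 (SE 0.178). All 3 were thus lower with both drugs by less than the sum of the single-drug values. The difference was -0.06 (SE 0.769) for CA9, moving to -0.95 without DMSO replicate 3 and to 0.38 without DMSO replicate 2, so its sign was not settled. For CA11 it was -1.05 (SE 0.652), with a range of -1.41 without DMSO replicate 1 to -0.64 without DMSO replicate 3. CA12 alone of the 5 passed the DEG cut-off for this interaction, beside 5.76% of all tested genes, and its value fell below the fold limit, to 0.99, with upper-quartile normalization.

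The summed FPKM of the 5 genes was 79.2 ± 2.65 (SD, n = 3) with DMSO, 38.5 ± 1.28 under everolimus, 37.3 ± 0.845 under SGI-1027 and 29.8 ± 1.65 under the combination. The treated libraries lay between 27.9 and 39.8, all below the lowest DMSO library at 76.3. Within this sum, the share of CA2 was 73.9% ± 1.87 with DMSO, 69.0% ± 0.454 under everolimus, 70.1% ± 1.92 under SGI-1027 and 56.6% ± 1.82 under the combination. The share of CA12 was 23.7% ± 1.88, 27.6% ± 0.187, 25.3% ± 1.72 and 38.1% ± 1.74 in the same order. In the combination libraries the membrane enzyme thus held 36.3% to 39.8% of the sum, above its share in every other library.

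**Figure D4:**
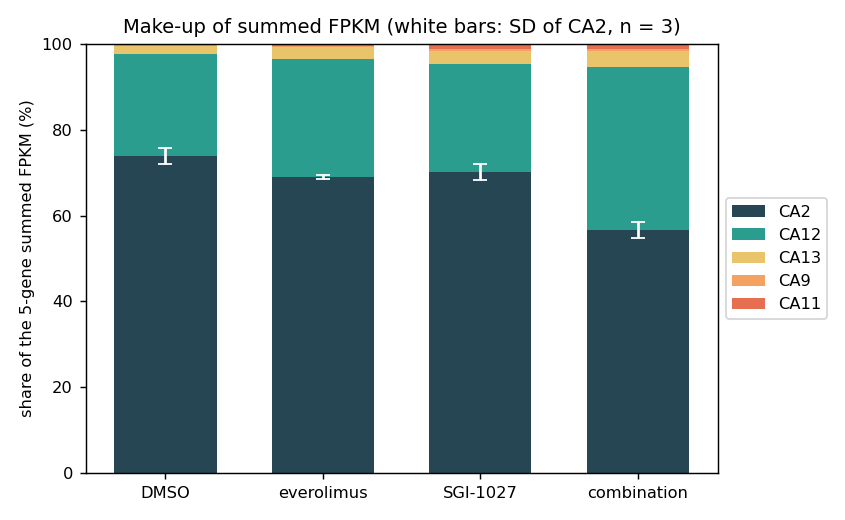
Mean share of each gene in the summed FPKM of the 5 genes (y axis, percent) in each group of 3 libraries, with the SD of the CA2 share in white. CA2 holds 73.9% with DMSO and 56.6% with the combination, and CA12 holds 23.7% and 38.1%.

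Of the other carbonic anhydrases, 6 were in the tables and 1 was tested, while CA4, CA5A, CA7 and CA10 were not analysed here. CA5B, a mitochondrial enzyme, stood at 0.549 ± 0.0175 FPKM (SD, n = 3) with DMSO, 0.526 ± 0.0306 under everolimus, 0.665 ± 0.0828 under SGI-1027 and 0.646 ± 0.109 under the combination. It passed the test in none of the 3 comparisons with DMSO, with edgeR adjusted p values of 0.727, 0.0959 and 0.191, and none was under 0.05 unadjusted or with DESeq2. Its libraries were higher than DMSO without overlap with SGI-1027, as were 32.5% of all tested genes, and with the combination, as were 34.5%. The untested genes were CA3 with 0 to 11 counts per library, CA6 with 0 to 12, CA8 with 0 to 6, CA1 with 0 or 1, and CA14 with 0 in every library, which allows up to 3 counts in each. CA3 had 1 to 2 counts with DMSO, 0 to 7 with everolimus, 4 to 11 with SGI-1027 and 5 to 7 with the combination. CA6 had 6 to 12, 0 to 4, 2 to 7 and 1 to 5 in the same order.

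Bicarbonate and protons are moved across membranes by transporters, and those of the SLC4 and SLC26 families carry bicarbonate and other anions. A set of 14 tested SLC4 and SLC26 genes moved in both directions. With an edgeR adjusted p under 0.05, 4 were higher and 3 lower with everolimus, 5 and 5 with SGI-1027, and 6 and 6 with the combination. Over all tested genes the shares higher and lower were 27.2% and 29.2%, 32% and 30.6%, and 32.8% and 33.4%, respectively. The study named anion transport among the terms for genes lower only with the combination at its DEG cut-off. It drew on these same libraries, so the list is not independent of them. At that cut-off 2 of the 14 were higher and 4 lower with the combination, beside 931 and 348 of all 12841 tested genes. Genes with few reads are among the 14, such as SLC26A7 with 3 to 5 counts in each combination library. SLC4A4, a sodium bicarbonate cotransporter, fell by 0.92 (SE 0.058) on the log2 scale with the combination (edgeR adjusted p = 1.32e-10). In contrast, the anion exchanger SLC4A3 rose by 1.25 (SE 0.096, edgeR adjusted p = 2.39e-09), and SLC26A2, a sulfate transporter, by 0.48 (SE 0.059, edgeR adjusted p = 1.05e-06).

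Among 11 tested proton and lactate exporters, 4 were higher and 4 lower with everolimus (5 and 2 with upper-quartile normalization), 4 and 4 with SGI-1027, and 5 and 3 with the combination. All tested genes were called higher and lower in 27.2% and 29.2%, 32% and 30.6%, and 32.8% and 33.4% of cases in these comparisons. The 8 exporters called with everolimus became 4 without DMSO replicate 3 and 5 without everolimus replicate 2. SLC9A7, a sodium proton exchanger, rose by 0.46 (SE 0.048, edgeR adjusted p = 1.33e-07) with the combination, and BSG, the chaperone of lactate transporters, by 0.32 (SE 0.034, edgeR adjusted p = 1.98e-07). SLC16A3, the lactate exporter MCT4, fell by 0.29 (SE 0.040, edgeR adjusted p = 3.79e-06). The median log2 fold change with the combination was 0.12 for the anion transporters and 0.07 for the exporters, beside 0.01 for all tested genes and -0.74 for the 5 carbonic anhydrases.

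CA9 and CA12 are genes of the hypoxia response, so 28 other tested HIF target genes were described alongside. With everolimus 7 were higher and 14 lower, with SGI-1027 13 and 8, and with the combination 14 and 8, at the same threshold. The shares of all tested genes called higher and lower were again 27.2% and 29.2%, 32% and 30.6%, and 32.8% and 33.4%, and whether the list departs from them was not tested. The median log2 fold changes were -0.13, 0.14 and 0.17, beside 0.00, 0.02 and 0.01 for all tested genes. With the combination CCND1, encoding cyclin D1, rose by 1.01 (SE 0.036, edgeR adjusted p = 5.43e-14) and NDRG1, a stress-response gene, by 1.60 (SE 0.064, edgeR adjusted p = 2.54e-13). The 8 that fell, named after their values were seen, were HK2, PFKFB3, PGK1, ENO1 and LDHA of glycolysis, PDK1, BNIP3 and IGFBP3. Of the 14 that rose, only CCND1 and NDRG1 are named here. At the DEG cut-off 6 of the 28 were higher and 0 lower with the combination, beside 931 and 348 of all 12841 tested genes. CA12 had a log2 fold change of -0.74 in the same libraries.

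Of 11 tested HIF pathway factors, 3 were higher and 4 lower with everolimus, 3 and 3 with SGI-1027, and 4 and 3 with the combination. For all tested genes the shares higher and lower were 27.2% and 29.2%, 32% and 30.6%, and 32.8% and 33.4%. Upper-quartile normalization gave 4 and 2 for each single drug. EPAS1 rose by 0.77 (SE 0.051) on the log2 scale with the combination (edgeR adjusted p = 2.8e-10) and by 0.59 (SE 0.051) with SGI-1027 (edgeR adjusted p = 1.36e-08). With everolimus EPAS1 changed by -0.16 (SE 0.051, edgeR adjusted p = 0.0122), a call lost with upper-quartile normalization or without everolimus replicate 2. HIF1A rose by 0.30 (SE 0.039, edgeR adjusted p = 2.11e-06) with the combination, while EGLN3, a prolyl hydroxylase that marks HIF for degradation, fell by 1.19 (SE 0.121, edgeR adjusted p = 9.37e-08). Whether any of these changes bears on the carbonic anhydrases was not tested.

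**Figure D5:**
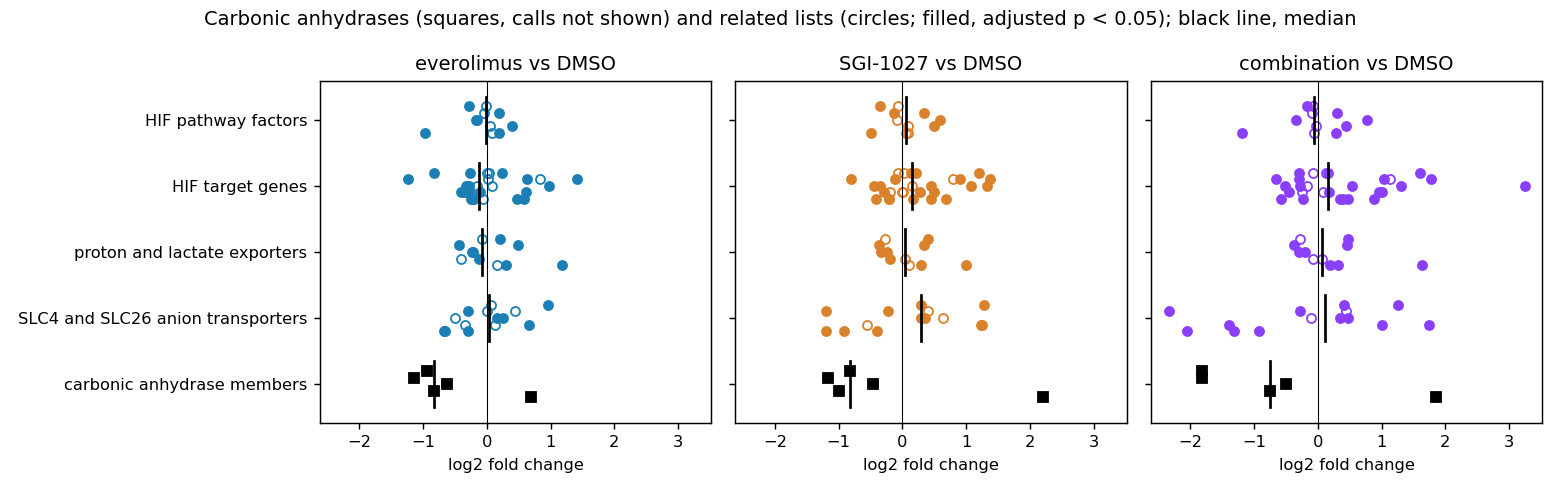
Log2 fold change against DMSO (x axis) of the 5 carbonic anhydrases (squares, calls not shown) and of the tested genes of 4 related lists (circles, filled at an edgeR adjusted p under 0.05), 1 panel per treatment, with black lines at the medians. With the combination the carbonic anhydrase median is -0.74, and the other lists have members on both sides of 0.

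The nearest genes on either side of the 5 in the GENCODE annotation, among genes of the deposited tables, were read for comparison. Annotated genes absent from those tables were passed over. On the opposite strand these include CA3-AS1, which overlaps CA2, AC011773.2 and AC011773.3, which overlap CA13, and SEC1P, which overlaps CA11. Among genes of the tables ATP6V0D2 came next downstream of CA2, after 505829 bases. This proton pump subunit had 0 to 5 counts in DMSO libraries, 0 to 2 with everolimus, 4 to 5 with SGI-1027 and 12 to 16 with the combination. It reached 10 counts only in the combination and so was kept for testing through the group in which it was high, and its counts are given without a test. E2F5, upstream of CA13, fell by 0.26 (SE 0.092, edgeR adjusted p = 0.0183) with the combination. Beside CA12, APH1B rose by 0.50 (SE 0.168, edgeR adjusted p = 0.0137) and USP3 fell by 0.16 (SE 0.051, edgeR adjusted p = 0.0114). Beside CA9, CCDC107 rose by 0.44 (SE 0.070, edgeR adjusted p = 2.22e-05) and TPM2 by 0.91 (SE 0.10, edgeR adjusted p = 2.71e-07). Tested neighbours thus moved in either direction.

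The genes most like each carbonic anhydrase were those with the highest Pearson correlation of log2 CPM over the 12 libraries, among 11462 genes compared. The libraries share their groups, and these values are a description. For CA2 they were DDX3X (r = 0.990), SUGT1 and HNRNPA2B1 (both 0.988), and for CA12 MRPS18B (0.987), PTDSS1 (0.984) and SRXN1 (0.983). For CA13 they were WDR74 (0.962), JMJD6 (0.958) and DNAJB11 (0.944), and for CA11 STARD9 (0.947), ZNF513 (0.944) and SPEN (0.939). CA9 had lower values, with SEMA3A (0.801), TRIM39 (0.788) and DZIP1 (0.783). After group means were removed, r was 0.473 for CA2 with DDX3X, 0.182 for CA12 with SRXN1 and -0.485 for CA12 with PTDSS1. For the other pairs it lay between 0.642 (CA2 with HNRNPA2B1) and 0.887 (CA13 with WDR74), and it was 0.857 for CA9 with SEMA3A.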

How the data were processed

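RNA sequencing of 786-O cells was used, with 3 libraries in each of 4 groups. The authors deposited raw whole-number counts by gene symbol and, for the same genes, their FPKM values (scaled by gene length and library size). The submitters' processing notes name the mouse builds GRCm38 and mm10, although 99% of the symbols were in human gene tables, so no coordinates were taken from the files. The aligner, counting program and strand setting are not given in the sources used here. The study's methods describe TRIzol extraction and stranded TruSeq libraries, whereas the labels name an RNeasy kit and SMARTer libraries.

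edgeR 4.0.16 in R 4.3.3 was run on the counts (filterByExpr, TMM factors, 1 quasi-likelihood fit of all 12 libraries, prior count 0.125). Contrasts were each treatment against DMSO, the combination against each drug, and their interaction. P values were adjusted by Benjamini-Hochberg across the 12841 tested genes. At 37046231 to 41516976 counts per library, precision rested on 3 libraries per group, and for CA9 and CA11 also on counting error. The spread between replicates exceeded sampling noise (chi-square per gene 3.04 to 16.4). In the DMSO group it was 10.1 and 12.9 for pairs with replicate 1, and 3.56 between replicates 2 and 3. In the SGI-1027 group it was 16.4 and 16.1 for pairs with replicate 3, and 3.04 between replicates 1 and 2. The procedure was tested on simulated data.

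The 5 genes and all lists were chosen with earlier results of these data known, so no p is given for the 5. Other named genes were the remaining carbonic anhydrases, the 3 with the smallest p of each list in the combination, the 3 best correlated with each of the 5 (mean of at least 50 counts) and annotated neighbours. A gene that this rule would name is not reported here, although it entered every fit and count. Results were recomputed with upper-quartile normalization, DESeq2 1.42.0, no filter, at least 10 counts in every library, a replicate term, 2 groups at a time, limma 3.58.1 on log2(FPKM + 1) and log2(FPKM + 0.1), adjusted p without a fold limit, and leaving out each library. Protein sequences were not analysed here.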

Additional observations from a re-analysis of the deposited data

Results flagged for a closer look

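CA12 moved in opposite directions when everolimus was added without and with SGI-1027. All everolimus libraries lay below all DMSO libraries, and all combination libraries lay above all SGI-1027 libraries (log2 fold change 0.243, against -0.82 for everolimus alone). The difference between these values is the interaction of 1.07 (SE 0.073) reported for CA12, a description because CA12 was chosen with its values known. CCND1 showed the same reversal, with 0.506 on adding everolimus to SGI-1027 and -0.41 (SE 0.036) without it.

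For the named genes of the transporter and HIF lists and for CA5B, the interaction of the drugs, the log2 fold change of the combination minus the sum of both single-drug values, was tested with edgeR, which called 45.6% of all tested genes at an adjusted p under 0.05. It was positive, 0.916 (SE 0.050, adjusted p = 2.72e-10), for CCND1, 0.337 (SE 0.071, adjusted p = 0.000861) for EPAS1 and 0.166 (SE 0.056, adjusted p = 0.0218) for SLC16A3. It was negative, -0.983 (SE 0.132, adjusted p = 9.88e-06), for SLC4A3 and -0.376 (SE 0.067, adjusted p = 0.000179) for SLC9A7. Smaller negative values were found for BSG (-0.271, SE 0.048, adjusted p = 0.000185), HIF1A (-0.226, SE 0.054, adjusted p = 0.00247) and SLC4A4 (-0.226, SE 0.081, adjusted p = 0.0295). The interaction did not pass for EGLN3 (0.273, SE 0.172, adjusted p = 0.209), NDRG1 (0.17, SE 0.088, adjusted p = 0.127), SLC26A2 (-0.135, SE 0.083, adjusted p = 0.194) or CA5B (0.001, SE 0.20, adjusted p = 0.996). All these interaction values rest on equal everolimus doses, which the annotations left unsettled.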

How the results depend on the processing

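With an adjusted p and no minimum fold change, 3 of the 5 carbonic anhydrases were called with everolimus, 4 with SGI-1027, 5 with the combination, 2 in the combination against everolimus, 2 against SGI-1027 and 3 for the interaction. Of all tested genes, 56.4%, 62.6%, 66.2%, 39.3%, 19.6% and 45.6% were called in these comparisons, in the same order. At 10 or more counts in every library, which removes CA9 and CA11, the DEG count was 1 with SGI-1027, 1 with the combination and 0 in the combination against everolimus. Of the 12009 genes tested at that setting, 522 passed as higher and 92 as lower with SGI-1027, and 665 and 230 with the combination. Limma-trend on log2(FPKM + 1), which understates weak genes, gave the same 1, 1 and 0, and log2(FPKM + 0.1) gave 0 in the combination against everolimus. With log2(FPKM + 1), 133 of 12841 genes passed as higher and 41 as lower with SGI-1027, and 250 and 84 with the combination. Upper-quartile normalization gave 0 for the interaction, and it called 1 other carbonic anhydrase (CA5B) with SGI-1027. Without a filter on low counts, 3 of the 5 passed the DEG cut-off with SGI-1027 and 1 other carbonic anhydrase was called in each comparison with DMSO. At that setting 976 of 16734 genes passed the cut-off as higher and 201 as lower with SGI-1027. Shares of all genes under these settings are not given here for the combination against everolimus, the interaction or calls by adjusted p. The same holds with 1 library left out. The cause of the changes with upper-quartile normalization and without the filter was not tested.

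Leaving out 1 library gave 1 to 2 DEGs of the 5 with everolimus, 0 to 1 in the combination against everolimus, 0 to 1 other carbonic anhydrases with SGI-1027 (1 without SGI-1027 replicate 2) and 4 to 9 exporters with everolimus (4 without DMSO replicate 3, 5 without everolimus replicate 2). Of 218 fold changes of the 5 genes under the other settings, 197 moved by less than the SD of log2 CPM within groups for that gene, and 21 moved by more. No fold change that passed the DEG cut-off changed sign, and sign changes of the others were not counted. Fewer than 10 counts in several libraries limit what can be said of CA9 and CA11.

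Replicate numbers gave no sign of pairing: same-numbered libraries of different groups deviated with correlations of -0.176 to 0.036 over 18 pairs. Such low values cannot show whether libraries were cultured or processed together. With the replicate block the DEG count among the 5 genes against DMSO was 1 (everolimus), 2 (SGI-1027) and 3 (combination), as without it. Of the 12841 genes tested with the block, 498 passed as higher and 115 as lower, 801 and 141, and 929 and 348, in the same order.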
